A study of Mus musculus with 3 samples.

Results

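Of the 10069 intervals of 300 bp at which NR2F2 binding was called in the mouse fetal testis, 448 lay in clusters. A peak was counted as clustered when the midpoints of at least 2 other peaks lay within 20 kb of its own midpoint on the same chromosome of mm10, and clustered peaks within 20 kb of each other were joined into 202 clusters. The 448 peaks were 4.45% of the 10064 peaks on placed chromosomes. Another 2373 peaks (23.6%) had exactly 1 peak within 20 kb and are called paired, and 7243 peaks (72.0%) had none and are called isolated. The rule used positions only and no counts.

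The peaks came from chromatin immunoprecipitation with a COUP-TFII antibody and sequencing of the bound DNA (ChIP-seq). Whole testes came from CD-1 embryos at stage E14.5 and were freed of the mesonephros. There were 2 NR2F2 ChIP libraries, from independent experiments that each used chromatin of 30 pooled testes, and 1 input library of sheared chromatin that was not immunoprecipitated. All 3 libraries came from the same stock, tissue and stage, with no mutant, treatment or other stage among them. Because all cell types of the testis were pooled, binding in few cells and weak binding in many cells cannot be told apart.

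NR2F2 (COUP-TFII) belongs to the nuclear receptors and binds DNA as a dimer at direct repeats of the half-site AGGTCA and can repress or activate the genes nearby. In the fetal testis it marks the interstitial cells between the testis cords, among which the progenitors of the androgen-producing fetal Leydig cells are found. Several peaks close together can stand for several bound elements of 1 gene, for bound promoters of neighbouring genes, or for a mixture of both. The positions of the peaks show where they lie but not which gene an element acts on.

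The sequences of 8 clustered peaks are shown because each holds the extended NR2F2 motif inside a cluster that the results turn on. The first 6 are the strongest motif peaks of leading clusters, and those at Dll4 and Wnt10a were added after their values were seen. They were read 5′ to 3′ on the plus strand of RefSeq GRCm38.p6, the assembly of mm10, and capitals mark AGAGGTCA, AGGGGTCA or the reverse complement of either.
Crtc2: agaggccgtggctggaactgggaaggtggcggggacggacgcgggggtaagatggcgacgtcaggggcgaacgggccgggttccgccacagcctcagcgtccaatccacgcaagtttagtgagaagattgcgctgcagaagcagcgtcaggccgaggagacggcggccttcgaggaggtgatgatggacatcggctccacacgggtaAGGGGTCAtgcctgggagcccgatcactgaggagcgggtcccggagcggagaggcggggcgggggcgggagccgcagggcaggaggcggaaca
Mllt10: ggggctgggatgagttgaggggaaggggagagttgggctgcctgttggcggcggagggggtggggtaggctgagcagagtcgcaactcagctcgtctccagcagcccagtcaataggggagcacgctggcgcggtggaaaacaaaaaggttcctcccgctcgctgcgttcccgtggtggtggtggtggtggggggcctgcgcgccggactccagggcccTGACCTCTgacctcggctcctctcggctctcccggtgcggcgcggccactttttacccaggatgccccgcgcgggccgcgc
Gm16364: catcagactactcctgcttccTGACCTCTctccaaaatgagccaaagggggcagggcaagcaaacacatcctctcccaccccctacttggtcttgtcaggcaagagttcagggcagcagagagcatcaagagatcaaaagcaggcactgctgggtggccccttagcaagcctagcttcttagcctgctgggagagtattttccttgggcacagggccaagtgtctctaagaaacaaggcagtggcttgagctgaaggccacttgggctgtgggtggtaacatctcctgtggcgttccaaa
Plxdc1: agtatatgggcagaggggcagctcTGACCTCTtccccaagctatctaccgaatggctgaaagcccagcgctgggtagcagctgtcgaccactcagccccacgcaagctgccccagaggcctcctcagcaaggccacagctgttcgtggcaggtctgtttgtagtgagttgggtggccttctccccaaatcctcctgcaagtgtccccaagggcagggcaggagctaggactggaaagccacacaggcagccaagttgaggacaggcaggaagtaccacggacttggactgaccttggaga
Ost4: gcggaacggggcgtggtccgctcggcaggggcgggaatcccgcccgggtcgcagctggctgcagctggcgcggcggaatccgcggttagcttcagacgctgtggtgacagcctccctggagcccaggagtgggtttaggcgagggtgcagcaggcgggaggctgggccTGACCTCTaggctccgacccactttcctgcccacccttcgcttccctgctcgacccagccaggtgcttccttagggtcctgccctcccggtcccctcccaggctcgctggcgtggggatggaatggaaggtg
4930526I15Rik: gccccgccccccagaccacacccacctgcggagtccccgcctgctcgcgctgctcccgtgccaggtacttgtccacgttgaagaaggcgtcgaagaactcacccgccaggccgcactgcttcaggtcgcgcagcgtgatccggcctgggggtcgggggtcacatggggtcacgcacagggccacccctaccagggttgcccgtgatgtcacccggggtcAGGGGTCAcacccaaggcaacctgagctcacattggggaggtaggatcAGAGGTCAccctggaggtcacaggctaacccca
Dll4: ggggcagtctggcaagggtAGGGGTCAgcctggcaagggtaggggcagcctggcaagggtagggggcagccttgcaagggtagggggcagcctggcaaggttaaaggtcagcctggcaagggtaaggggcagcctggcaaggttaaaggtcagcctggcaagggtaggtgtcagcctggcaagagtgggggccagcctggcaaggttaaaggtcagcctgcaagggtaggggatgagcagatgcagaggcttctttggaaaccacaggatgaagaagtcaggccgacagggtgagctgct
Wnt10a: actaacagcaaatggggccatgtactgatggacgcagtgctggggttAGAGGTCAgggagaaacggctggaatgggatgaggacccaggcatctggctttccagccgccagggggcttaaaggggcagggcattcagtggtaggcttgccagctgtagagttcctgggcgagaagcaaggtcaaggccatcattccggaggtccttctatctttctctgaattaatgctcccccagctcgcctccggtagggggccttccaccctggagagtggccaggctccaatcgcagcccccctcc

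The Mllt10 peak lay at chr2:18056290-18056589 in an intron of the gene, which encodes a cofactor of the histone methyltransferase DOT1L. The Crtc2 peak (chr3:90254355-90254654) overlapped a coding exon of this coactivator of the transcription factor CREB. The Ost4 peak (chr5:30907861-30908160) lay 73 bp upstream of the transcription start site (TSS) of a subunit of the oligosaccharyltransferase. The Plxdc1 peak (chr11:97980706-97981005) was intronic. The remaining 4 lay outside the gene nearest to them, at chr10:39640758-39641057 for Gm16364 (in an intron of Traf3ip2), chr9:124441745-124442044 for 4930526I15Rik, chr2:119319519-119319818 for Dll4 and chr1:74806347-74806646 for Wnt10a. The 4930526I15Rik peak held 2 matches, 1 of each form. The Dll4 sequence was built of a short tandem repeat, in which the 10 bases AGCCTGGCAA occurred 8 times and AGGTCA occurred 3 times on the plus strand.

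The clusters were small groups and not long arrays. With every peak in reach counted, a cluster had 3 to 7 peaks, and 163 of the 202 clusters had 3. A clustered peak can have neighbours that themselves reach only 1 other peak, and 221 such paired peaks flanked the clusters. For that reason 87 clusters held 1 clustered peak and 10 held 2. The other 105 clusters held 3 to 6 clustered peaks and 341 peaks in all. These 105 clusters spanned 1696 to 51993 bp, with a median of 17083 bp. The nearest neighbour of a clustered peak lay at a median of 6590 bp (509 to 19187 bp), against 70569 bp for isolated peaks, a difference that the rule itself fixed. A neighbour within 1 kb was present at 97 clustered peaks (21.7%). No peaks in the set overlapped, since the smallest distance between any midpoints was 497 bp. The peak just inside the rule at Ctnnd1 reached 2 neighbours within 19928 bp, and those just outside at Sting1 and Ube2d2a needed 20071 bp.

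Clusters were present on 20 chromosomes, and there were no peaks on the Y chromosome. Chromosome 11 held the most, with 70 of its 721 peaks clustered (9.71%) in 27 clusters. Chromosome 12 had 3 clustered peaks of 431 (0.696%), and the X chromosome had 3 of 202 (1.49%). On the other 17 chromosomes the clustered share lay between 2.74% and 5.84%. Chromosome 11 also had the highest density of peaks, at 5.91 per Mb, and 15.9 annotated genes per Mb. Chromosome 12 had 3.59 peaks and 7.47 genes per Mb. Chromosome 7 had the same gene density as chromosome 11, with 4.53 peaks per Mb and 4.55% of its peaks clustered. The part of gene and peak density in these shares was not tested.

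**Figure D1:**
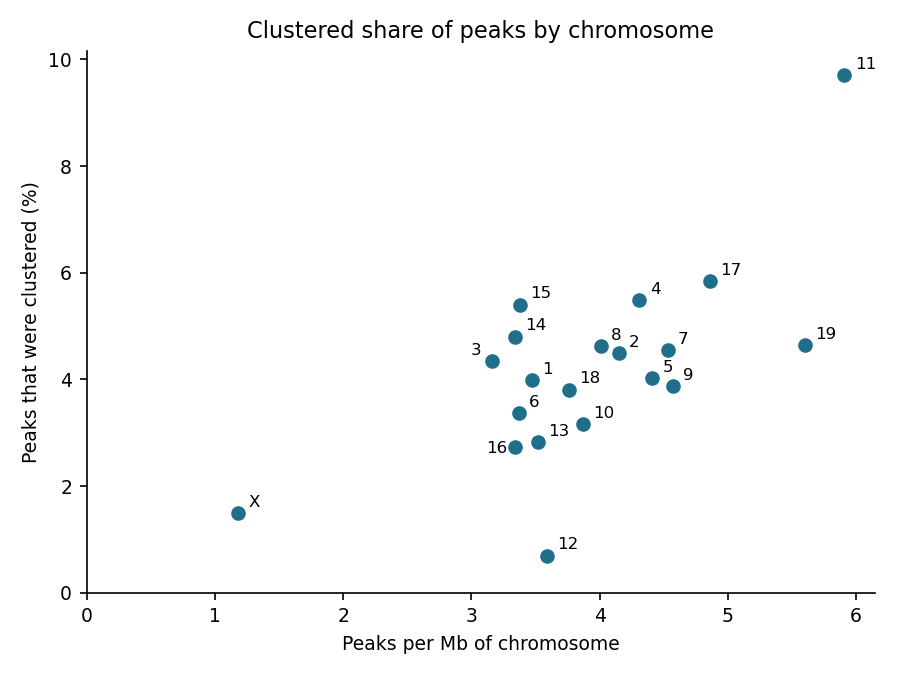
Share of peaks that were clustered (y axis, in percent) against the number of peaks per Mb (x axis), with 1 point per chromosome. Chromosome 11 stands at the top right with 9.71%, while chromosome 12 has 0.696% at a density of 3.59.

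Clustered peaks carried more ChIP reads than isolated peaks in both replicates. At the 448 clustered peaks the count was 10 to 180 in ChIP replicate 1, with a median of 44. In ChIP replicate 2 it was 9 to 166, with a median of 37.5, and in the input it was 1 to 19, with a median of 8. The isolated peaks had medians of 36, 30 and 7 in the same order of libraries, and the paired peaks had medians of 38, 33 and 7, so the order of the classes was the same in both replicates.

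On the log2 scale, with 0.5 added to each count, the median of the clustered peaks was 0.30 ± 0.02 (SD, n = 2 replicates) above that of the isolated peaks. The difference was 0.29 in replicate 1 and 0.32 in replicate 2. The input differed in the same direction. The median ChIP to input ratio of the clustered peaks was 5.6 in replicate 1 and 4.78 in replicate 2, against 5.00 and 4.31 at isolated peaks. As a log2 ratio this difference was 0.16 ± 0.01 (SD, n = 2 replicates), so the gap between the classes was smaller once the input was taken into account. The difference between the classes was not tested, since peaks are not replicates and an exact two-sided sign permutation over 2 ChIP libraries cannot give a p below 0.5.

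The size of the difference depended on where the peaks lay and, at 10 kb, on the window. Among TSS proximal peaks, which overlap a TSS or lie up to 1 kb upstream of it, the log2 difference was 0.14 ± 0.08 for counts and 0.07 for ratios. Among all other peaks it was 0.34 ± 0.05 for counts and 0.17 for ratios. With a window of 10 kb, which left 96 clustered peaks, the count difference was 0.13 ± 0.03 and the ratio difference was -0.01, so that no excess over input was seen. With a window of 50 kb, which gave 2072 clustered peaks, the differences were 0.30 for counts and 0.14 for ratios. Of the clustered peaks, 17.4% were among the 10% of all peaks with the highest summed ChIP count, against 9.25% of the isolated peaks. The strongest 99 peaks on placed chromosomes held 7 clustered peaks (7.07%), where 4.45% of all placed peaks were clustered. No clustered peak reached the 312 and 273 counts found at the top of the paired peaks.

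**Figure D2:**
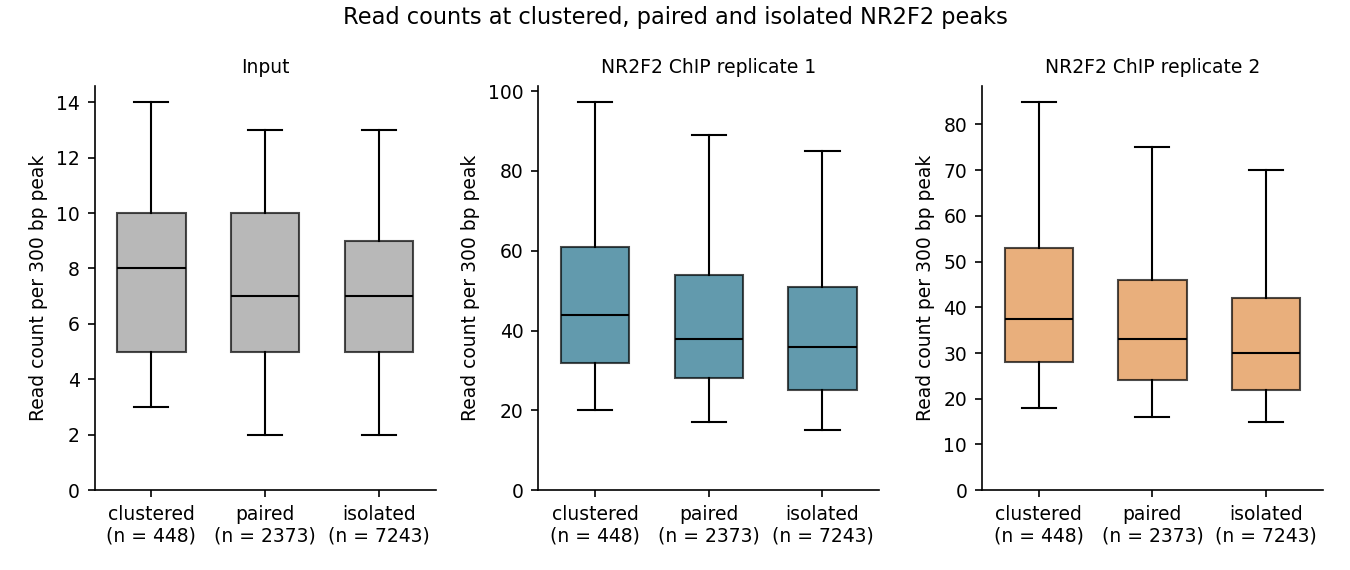
Read count per 300 bp peak (y axis) at clustered, paired and isolated peaks in the input and in both NR2F2 ChIP replicates. Boxes span the quartiles with the median as a line, and whiskers reach the 5th and 95th percentiles of peaks; the medians of clustered peaks were 8, 44 and 37.5, against 7, 36 and 30 at isolated peaks.

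Clustered peaks were about as often at promoters as isolated peaks, but their surroundings held more genes. The TSS proximal share was 35.3% (158 of 448) for clustered and 36.0% for isolated peaks. The share inside the body of the nearest gene was 37.1% against 32.9%. The share up to 10 kb upstream of a TSS, beyond the proximal zone, was 9.38% against 3.53%. The intergenic share was 18.3% against 27.5%. By sequence annotation, 148 clustered peaks (33.0%) lay in introns, 53 (11.8%) in 5′ UTRs, 50 (11.2%) in coding exons, 12 in exons of non-coding transcripts and 6 in 3′ UTRs, and 179 (40.0%) lay outside any gene.

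At least 3 genes had a TSS within 20 kb at 182 clustered peaks (40.6%), against 19.2% of the paired and 7.80% of the isolated peaks. No gene had one at 59 clustered peaks (13.2%), against 30.1% of the isolated peaks. The mean number of such genes was 2.31 at clustered and 1.09 at isolated peaks. Of all placed peaks 58% lay within 1 kb of a TSS, and the rule used the same 20 kb. The classes and these gene counts were therefore not independent, and how far the rule fixed the difference was not tested. Base composition differed less, with a median GC content of 61.3% against 60.7% and a median of 18 against 17 CpG per peak. Among peaks with at most 1 such gene, the log2 count difference between clustered and isolated peaks was 0.30 ± 0.03 (SD, n = 2), with 0.27 and 0.32 in the single replicates. The ratio difference was 0.10 ± 0.05 (SD, n = 2), with 0.06 in replicate 1 and 0.14 in replicate 2.

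**Figure D3:**
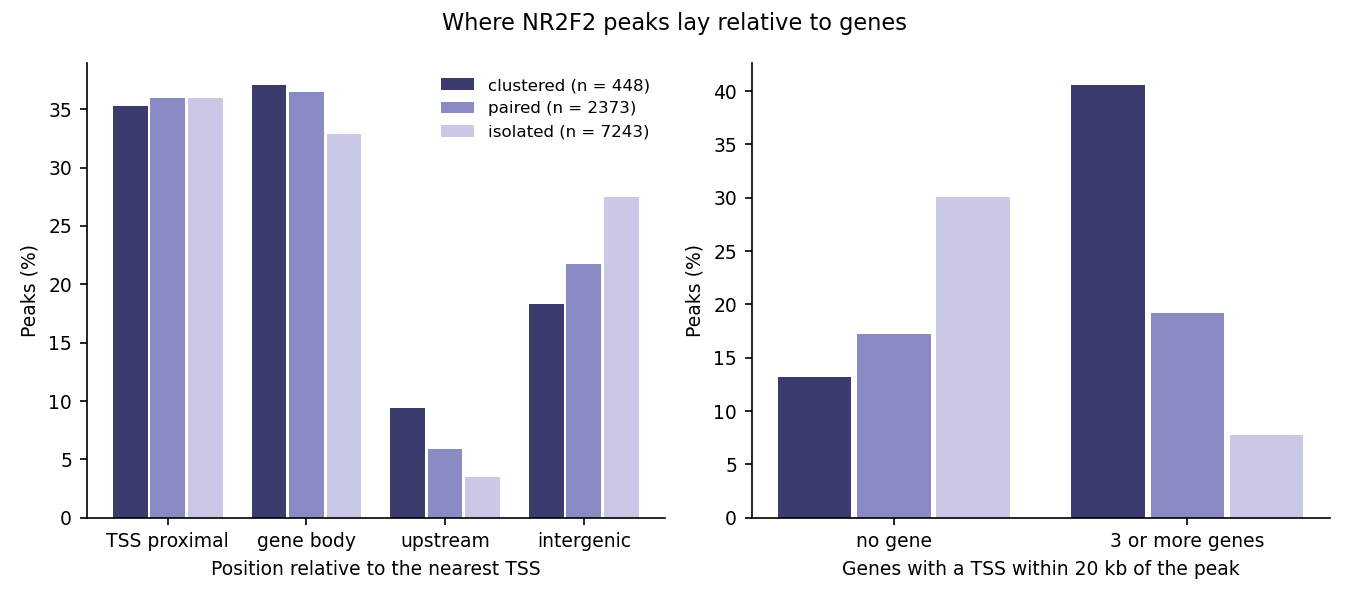
Left, the share of clustered, paired and isolated peaks (y axis, in percent) by position relative to the nearest TSS. Right, the share of peaks with no gene, or with 3 or more genes, whose TSS lay within 20 kb; 40.6% of clustered peaks had 3 or more, against 7.80% of isolated peaks.

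The half-site motif of NR2F2 was as frequent in clustered as in isolated peaks. The extended motif, AGAGGTCA or AGGGGTCA on either strand, was present in 49 clustered peaks (10.9%), against 10.3% of isolated and 10.5% of all placed peaks. In windows of the same length 2 kb away it was present at 3.12% around clustered peaks and 2.80% around all peaks. The nearest match lay at a median of 63 bp from the centre of the peak, and within 50 bp in 18 of the 49. The core AGGTCA, which AGAGGTCA contains and AGGGGTCA does not, was present in 40.0% of clustered, 37.9% of isolated and 37.7% of all placed peaks. Windows 2 kb away held it at 20% around clustered peaks, against 17.4% around isolated and 17.4% around all placed peaks.

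The counts of motif peaks stood further above the other peaks inside clusters than outside them. Clustered peaks with the extended motif had a median of 60 counts in replicate 1 and 57 in replicate 2, with a median input of 7. The 399 clustered peaks without it had medians of 43, 37 and 8 in the same libraries. As a log2 difference this was 0.55 ± 0.10 (SD, n = 2 replicates). Isolated peaks with the motif had medians of 39 and 33, against 35 and 30 without it, a log2 difference of 0.14 ± 0.01. Outside TSS proximal peaks the log2 differences were 0.57 ± 0.18 at clustered and 0.14 ± 0.01 at isolated peaks. These medians describe the peaks, and the difference between the classes was not tested.

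Motifs of other factor families were also counted, on both strands. The GC box GGGCGG was present in 43.1% of clustered, 38.8% of isolated and 39.5% of all placed peaks. The ETS-type site CCGGAAG was present in 9.60%, 10.7% and 10.6% in the same order. The YY1-type site AAGATGGC was present in 6 clustered peaks (1.34%), against 3.59% of isolated and 3.33% of all placed peaks. Windows 2 kb from clustered peaks held it at 1.79%. A match is a description of the letters in the peak and not of binding.

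Among the 105 clusters with 3 or more clustered peaks, 37 had the same nearest gene for every peak, 46 had 2 nearest genes and 22 had 3 or more. A mixture of promoter and other peaks was the most frequent arrangement, found in 70 clusters. No TSS proximal peak was present in 29 clusters, and in 6 every peak was TSS proximal. In the 70 mixed clusters the strongest peak was TSS proximal in 32 (45.7%), against 45.0% of their 231 peaks (104), so the strongest peak was no more often at a promoter than any other. The 92 peaks of the clusters without a promoter peak had medians of 44.5 and 38.5 counts in the replicates and 8 in the input. The 249 peaks of clusters with 1 or more had medians of 42, 37 and 8. The extended motif was in 15.2% of the former peaks and 8.43% of the latter.

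Peaks of 1 cluster were unequal. The strongest peak had 1.08 to 7.54 times the summed ChIP count of the weakest, with a median of 1.75. It held 23.2% to 63.1% of the reads of its cluster, with a median of 40.9%. The ratio was above 2 in 35 clusters and above 4 in 2. The same peak was strongest in both replicates in 75 of the 105 clusters (71.4%). The SD of log2 counts was 0.673 over all 341 peaks and 0.545 within clusters in replicate 1, and 0.675 and 0.575 in replicate 2. Counts thus varied less between peaks of a cluster than over all of these peaks, in both replicates. The extended motif was in 1 peak in 26 clusters, in 2 peaks in 3 clusters and in 3 peaks in 1 cluster, and 75 clusters had none.

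Cluster size went with little change in counts. The 107 peaks in clusters of 1 or 2 clustered peaks had medians of 48 and 39 in the ChIP replicates. The 258 peaks in clusters of 3 had medians of 42 and 36, and the 83 in larger clusters had medians of 44 and 41. The median input was 8 in all 3 sets. The 221 flanking peaks had medians of 45, 37 and 8, close to those of the clustered peaks.

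The cluster with the most clustered peaks ran over 45366 bp of chromosome 3 (90248572 to 90293937) and held 6 peaks at Slc39a1, Crtc2, Dennd4b, Mir7012 and Gatad2b. The peaks at Crtc2 and 31 bp upstream of Dennd4b, a gene of the DENN domain family, were the strongest. The Crtc2 peak, shown above, had 57 and 60 counts in the ChIP replicates and 4 in the input, and the Dennd4b peak had 56, 64 and 4. The peak in an intron of the zinc transporter gene Slc39a1 had 50 counts in replicate 1 but 21 in replicate 2, with 11 in the input. A pair of promoter peaks of Gatad2b, which encodes a subunit of the NuRD complex, had 42, 23 and 8 and then 22, 17 and 9 counts. The sixth peak, in a coding exon of Dennd4b and nearest to Mir7012, held the motif as well and had 23, 18 and 7 counts. The motif peaks were neither the highest nor the lowest of this cluster in summed ChIP counts.

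On chromosome 8 (84834855 to 84857183) 5 peaks lay at housekeeping genes. Calr, which encodes the chaperone calreticulin, had an intronic peak with 51, 54 and 10 counts (ChIP replicate 1, replicate 2 and input) and a promoter peak with 71, 52 and 7 counts. The 3′ UTR of Gadd45gip1 had 81, 66 and 11 counts, and the TSS of Farsa, a subunit of phenylalanyl-tRNA synthetase, had 46, 36 and 15. The strongest had 1.79 times the ChIP counts of the weakest, near the median of 1.75, and none held the extended motif.

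The cluster of A930004D18Rik and Mllt10 on chromosome 2 (18040372 to 18065664) was the most unequal of the 105, with a ratio of 7.54. The intronic Mllt10 peak shown above had 146 and 133 counts in the ChIP replicates and 6 in the input. The other 4 peaks had 15 to 55 ChIP counts in either replicate and 4 to 7 in the input. A single peak thus held 54.2% of the reads of this cluster.

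Peaks at neighbouring promoters formed a cluster of 5 peaks on chromosome 11 (69948778 to 70000770), the longest of all at 51993 bp. Slc2a4, which encodes the insulin-responsive glucose transporter GLUT4, had 83 and 53 ChIP counts and 8 in the input at a peak 581 bp upstream of its TSS. The peak between Ctdnep1 and Elp5 had 72, 49 and 7 counts, that at the autophagy gene Gabarap 44, 43 and 7, and that at the TSS of the Wnt signal transducer Dvl2 53, 48 and 12. The coding exon peak of the claudin gene Cldn7 had 48, 22 and 9 counts. Promoter peaks of Ybx2 and Acadvl flanked the cluster with 48, 27 and 6 and with 68, 51 and 9 counts. With these flanks it had 7 peaks, the most of any cluster, and 6 of the 7 were TSS proximal.

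On chromosome 10 (39640758 to 39674470) none of 5 peaks was TSS proximal, 4 were nearest to the predicted gene Gm16364, and 4 held the core AGGTCA. Their ChIP counts were 27 to 55 in replicate 1 and 31 to 65 in replicate 2, with 4 to 9 in the input. At Farp1 on chromosome 14 (121035164 to 121063051) 5 peaks followed from 111 bp upstream of the TSS to 27178 bp into the gene. They were weak and even, with 17 to 39 counts in replicate 1, 21 to 34 in replicate 2 and 3 to 10 in the input. At Plxdc1 and Arl5c on chromosome 11 (97980706 to 97994997), 4 peaks had 53 to 83, 43 to 83 and 5 to 19 counts. The motif peak of Plxdc1 had 19 input counts, the highest of the clustered peaks along with 1 other, beside 81 and 55 in the ChIP replicates. Peaks of this cluster shared 7.47% of their 20-base words, so reads may be split between similar sequences there.

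The cluster with the most motif peaks lay on chromosome 5 (30869581 to 30908160), where 3 of 4 peaks held the extended motif. At the TSS of Agbl5, which encodes a tubulin deglutamylase, the counts were 82 and 67 in the ChIP replicates and 8 in the input. Another Agbl5 peak 1073 bp upstream had 60, 50 and 7 counts, and the Ost4 peak shown above had 98, 65 and 9. The peak of Tmem214, without a match, had 58, 46 and 6. Summed over its peaks, this cluster had 298 and 228 ChIP counts over 30 input counts, a log2 value of 0.81 ± 0.24 (SE) relative to the typical locus (adjusted p = 0.0623, edgeR's quasi-likelihood test), which did not pass the threshold of 0.05.

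**Figure D4:**
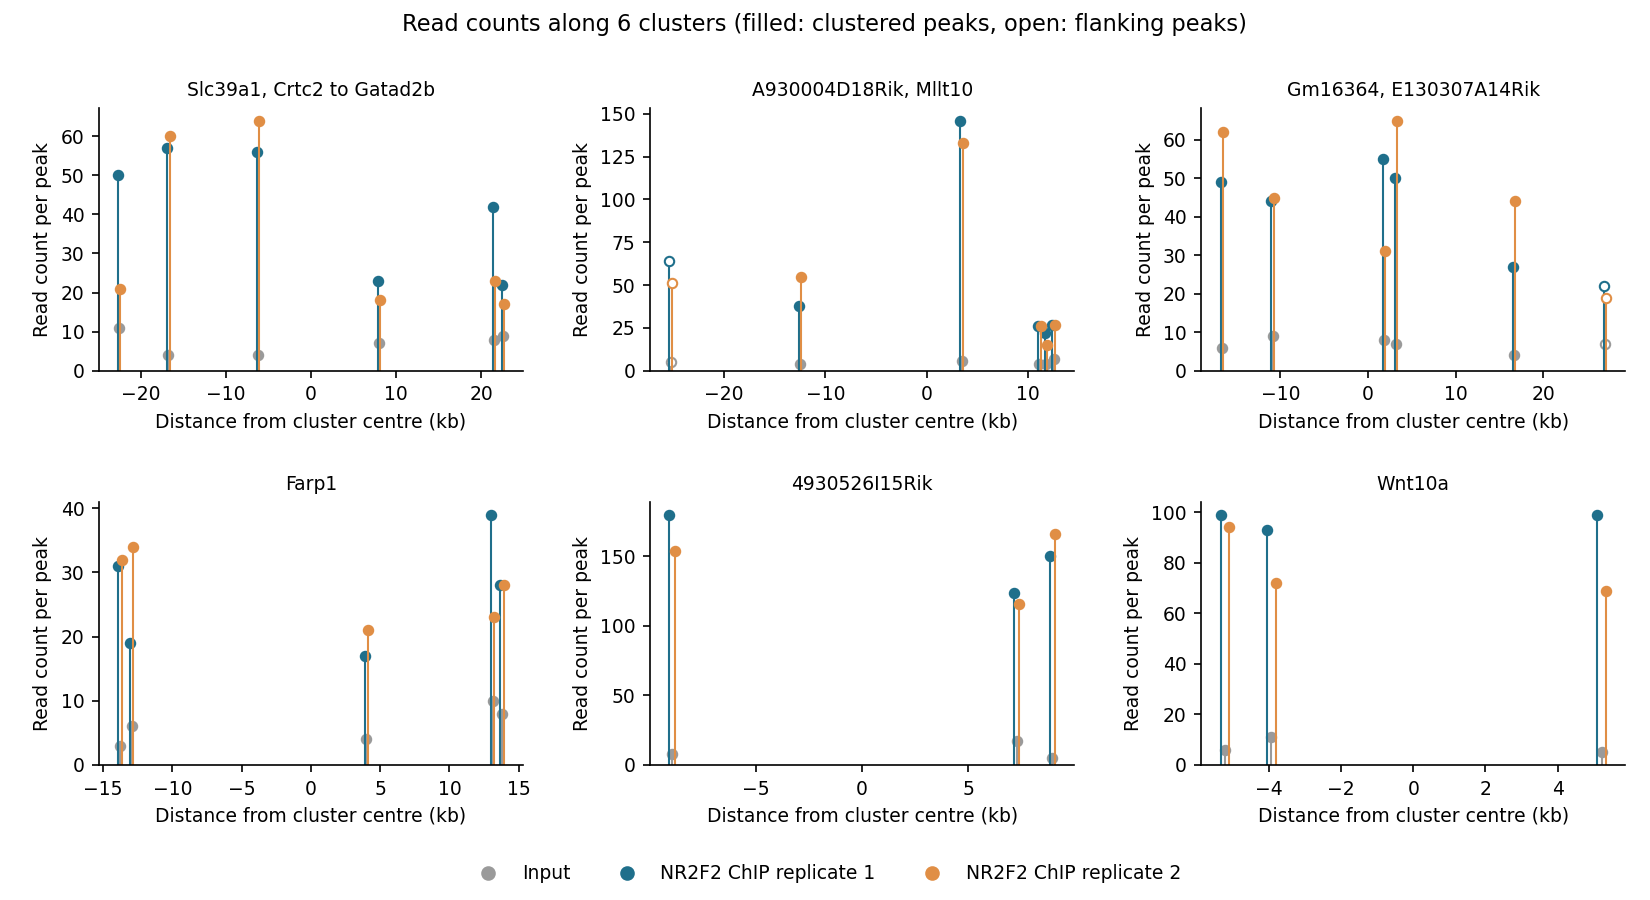
Read count per peak (y axis) against the distance from the centre of the cluster in kb (x axis) for 6 clusters, in the input and in both NR2F2 ChIP replicates, with the points of the libraries set slightly apart. Filled points are clustered peaks and open points flanking peaks; 1 peak of 146 and 133 counts dominates the Mllt10 cluster, while the 5 peaks at Farp1 stay at 39 counts or fewer.

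Among clusters whose clustered peaks share 1 nearest gene, Farp1 had the most clustered peaks. Rnf157, a ubiquitin ligase gene on chromosome 11 (116403871 to 116418477), had 4 peaks from an intron to 5146 bp upstream of the TSS. The intronic peak was the strongest, with 69, 55 and 5 counts (ChIP replicate 1, replicate 2 and input), and the others had 38 to 43 ChIP counts. Elovl5, which encodes an elongase of polyunsaturated fatty acids (chromosome 9, 77910735 to 77932014), had its strongest peak 6331 bp upstream with 61, 58 and 6 counts. Its TSS peak had 20, 23 and 8, which was the lowest of the 4. Rgs22 on chromosome 15 (36075376 to 36088510) had 4 peaks inside the gene, 51890 to 64725 bp from its TSS, of which that in a coding exon had 46, 53 and 8 counts.

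Mnt, which encodes a repressor that pairs with MAX (chromosome 11, 74830529 to 74838048), had 3 peaks of nearly equal height. The promoter peak with the motif had 76, 55 and 6 counts, and the intronic peaks had 89, 74 and 12 and then 69, 68 and 13. The peaks nearest to Cpn2, a subunit of carboxypeptidase N, lay 79191 to 95375 bp downstream of its TSS on chromosome 16 (30171858 to 30188341) and had 58 to 94, 52 to 87 and 6 to 17 counts. The nearest gene is only a label at such a distance. The 3 clusters whose peaks were all TSS proximal to different genes were Flad1, Shc1 and Pygo2 on chromosome 3, Zfp113, Cops6 and Mcm7 on chromosome 5, and Rnu3b1, Rnu3b3 and Rnu3b4 on chromosome 11.

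At Flad1, Shc1 and Pygo2 (89411798 to 89430493) the middle promoter stood out. Shc1, a signalling adaptor of receptor tyrosine kinases, had 111, 91 and 5 counts at its TSS, Pygo2, a nuclear cofactor of Wnt signalling, had 90, 66 and 7, and Flad1, which encodes FAD synthase, had 26, 28 and 11. The promoters of Zfp113, Cops6 and the replicative helicase gene Mcm7 (138155471 to 138171333) were more alike, with 72, 58 and 6, with 45, 36 and 8 and with 75, 56 and 6 counts. The Rnu3b genes (87442697 to 87462120) are copies of the U3 small nucleolar RNA gene inside Tex14, and their peaks had 67, 49 and 5, then 45, 38 and 5, then 32, 21 and 3 counts. Their peaks shared 44.5% of their 20-base words, the most of any cluster, so the split of reads between these copies is uncertain. Only 4 of the 202 clusters shared any such word between peaks.

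Peaks were next compared with the typical ChIP to input ratio over all 10069 peaks, which needs no library depth. The log2 values are relative to that ratio. edgeR's quasi-likelihood test placed 9 of the 448 clustered peaks above it (2.01%) at an adjusted p under 0.05, against 1.53% of all peaks. None lay below it, against 0.0497% of all peaks. Without adjustment, at a p under 0.05, 51 clustered peaks (11.4%) were above, against 7.89% of all peaks, and 9 (2.01%) were below, against 2.55%. DESeq2 gave 395 of the 448 no adjusted p and placed 1 of the other 53 above, against 3.15% of the 699 peaks with an adjusted p. It placed none below, against 0% of those 699. Without adjustment DESeq2 had 15 above (3.35%), against 1.98% of all peaks, and 1 below (0.223%), against 0.129%. The 9 peaks are close in share to the background, and they had at most 9 input counts each. The median log2 value was 0.14 over clustered peaks and 0.02 over all peaks.

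The highest of the 9 was the Dll4 peak, 5966 bp upstream of the TSS of this Notch ligand gene on chromosome 2. It had 108 and 111 counts in the ChIP replicates and 2 in the input. The raw ratios were 54.0 (95% exact interval 14.6 to 452, counting error only) and 55.5 (15 to 464). The fitted log2 value was 3.44 ± 0.65 (SE; adjusted p = 4.92e-05, edgeR's quasi-likelihood test), and under the alternatives the adjusted p was 4.92e-05 to 0.0770, with DESeq2 at the top. Its flanking peaks, nearest to Vps18 and Gm14207, had 31, 25 and 4 and then 40, 32 and 10 counts, so that only the middle peak was high.

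At 4930526I15Rik on chromosome 9 (124423806 to 124442044) there were 2 of the 9 peaks in 1 cluster. The first, in an exon of this non-coding gene 19 bp downstream of its TSS, had 180, 154 and 8 counts. The last, the motif peak shown above, had 150, 166 and 5. Their log2 values were 2.06 ± 0.40 (SE; edgeR adjusted p = 9.97e-05) and 2.66 ± 0.46 (edgeR adjusted p = 5.11e-06). The middle peak had 124 and 116 ChIP counts but also 17 in the input, near the top of the range of the input. The cluster ended 153066 bp before the end of the sequence of chromosome 9.

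The other 6 peaks lay in 6 different clusters, and 5 of them are described here. The Mllt10 peak had a log2 value of 2.22 ± 0.45 (edgeR adjusted p = 0.00027). Prmt1, the main protein arginine methyltransferase, had 100, 104 and 5 counts in an intron 306 bp from its TSS on chromosome 7 (44985815 to 44986114; log2 2.03 ± 0.52, edgeR adjusted p = 0.0120), and the Shc1 peak had a log2 value of 2.01 ± 0.53 (edgeR adjusted p = 0.0142). Smim20, a gene for cytochrome c oxidase assembly on chromosome 5 (53267232 to 53267531), had 150, 123 and 8 counts in an intron, 126 bp from the TSS (log2 1.77 ± 0.42, edgeR adjusted p = 0.00415). The peak nearest to the salt-inducible kinase gene Sik1, 78212 bp from its TSS on chromosome 17 (31777293 to 31777592), had 132, 118 and 9 counts (log2 1.48 ± 0.42, edgeR adjusted p = 0.0346). Of all 9 peaks, 5 held the extended motif and 2 were TSS proximal. With DESeq2 size factors in edgeR, 4 of the 9 passed, with DESeq2 1 passed, and the Sik1 peak also failed without TMM scaling (edgeR adjusted p = 0.0845, with 0.0346 to 0.261 over its alternatives). The share of all peaks that passed with DESeq2 size factors was not computed.

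The clusters were then taken as wholes, which added reads where a cluster held more than 1 clustered peak. In a table in which each cluster was 1 locus and every other peak another, edgeR's quasi-likelihood test placed 7 of 202 clusters (3.47%) above the typical locus at an adjusted p under 0.05, against 1.53% of all 9823 loci. None was below, against 0.0713% of loci. Without adjustment 26 clusters (12.9%) were above, against 7.75% of all loci, and 8 (3.96%) were below, against 2.63%. DESeq2 gave 86 clusters no adjusted p and placed 1 of the other 116 above, against 5.08% of the 492 loci with an adjusted p, and none below, against 0%. Without adjustment it had 9 above (4.46%), against 2.01% of loci, and 1 below (0.495%), against 0.122%. Sums over several peaks hold more counts, so a change of the same size passes more easily, but 87 of the 202 clusters, among them Dll4, Smim20 and Sik1, were 1 peak as before. The median log2 value was 0.19 over clusters and 0.01 over all loci.

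The 4930526I15Rik cluster had 454 and 436 ChIP counts over 30 input counts (log2 1.57 ± 0.21, edgeR adjusted p = 2.84e-09). It passed under each of the 5 alternatives, with an adjusted p of at most 0.0189 (DESeq2). Of these, robust fitting gave the same value as the main fit. The filter of at least 10 input counts raised the log2 value to 1.88, so neither was a strict check. It also had the highest mean ChIP count per peak of all clusters, 148. The Wnt10a cluster on chromosome 1 (74806347 to 74817081) passed as a whole although none of its peaks did alone. Its 3 peaks, 14328 to 24763 bp downstream of the TSS of this Wnt ligand gene and outside any gene, had 99, 94 and 6, then 93, 72 and 11, then 99, 69 and 5 counts. The summed log2 value was 1.26 ± 0.26 (edgeR adjusted p = 0.000847), and its adjusted p was 1e-05 to 0.118 under the alternatives, above 0.05 with DESeq2 and with DESeq2 size factors in edgeR. This was an even cluster, with the strongest peak 1.17 times the weakest. Dll4, Smim20 and Sik1 (log2 1.47), each with 1 clustered peak, were called here with nearly the same values as above. The Mllt10 cluster had the lowest value of the 7 (1.05 ± 0.26, edgeR adjusted p = 0.00865).

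**Figure D5:**
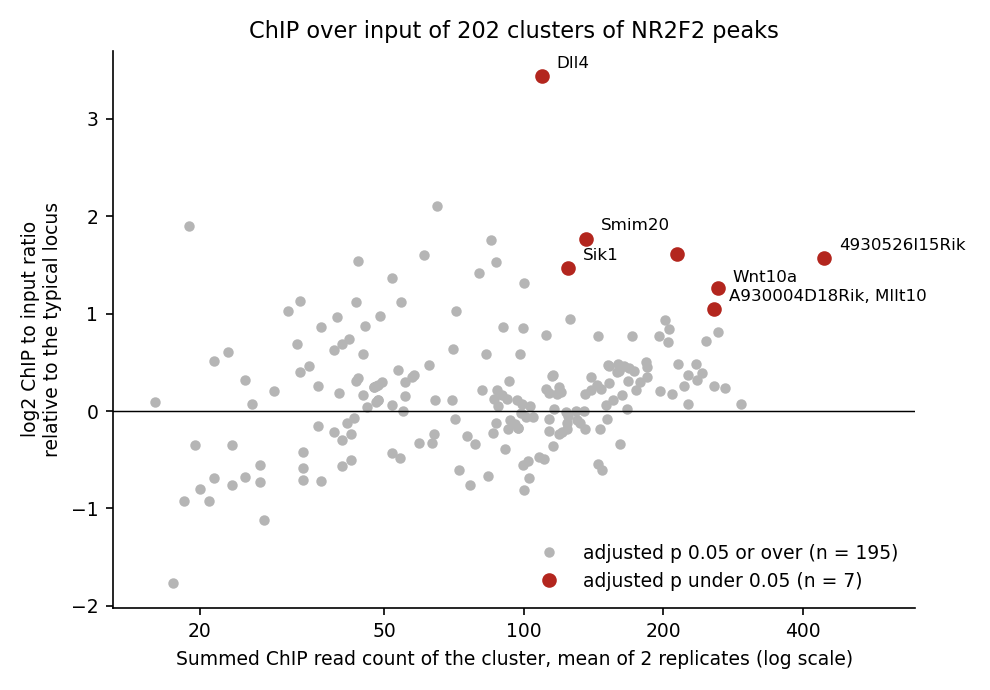
Fitted log2 ChIP to input ratio of the 202 clusters relative to the typical locus (y axis) against their summed ChIP read count (x axis, log scale, mean of 2 replicates), with 1 point per cluster. The 7 clusters with an adjusted p under 0.05 are in red, 6 of them with their nearest genes, and Dll4 stands highest at 3.44 while 4930526I15Rik has the most reads.

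The replicates were compared at each clustered peak by an exact two-sided binomial test on the shares of reads. None of the 448 differed at an adjusted p under 0.05, against 0.0993% of all peaks. Without adjustment 42 clustered peaks (9.38%) had a p under 0.05, against 8.83% of all peaks. The libraries and not conditions are compared by it. At all 448 clustered peaks both ChIP replicates had more counts than the input, but the peaks had been called on the merged ChIP reads.

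The 448 clustered peaks had 303 different nearest genes, 3.83% of the 7919 genes nearest to any peak. None of the 8 interstitial genes and 5 fetal Leydig genes of the lists with a peak was the nearest gene of a clustered peak, so no cluster was named for them. Of the 32 peaks nearest to an interstitial gene, 20 were isolated and 12 were paired. Nr2f2 itself had 5 peaks, of which 2 were paired, Tcf21, a transcription factor of mesenchyme, had 5 with 2 paired, and Gli2, an effector of hedgehog signalling, had 3 with 2 paired. With a window of 50 kb, 13 of the 32 (40.6%) were clustered, against 20.6% of all placed peaks, and 5 of these 13 were nearest to Pknox2 and 3 to Tcf21. The absence of these genes from the clusters therefore depended on the window of 20 kb.

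None of the 21 nuclear receptor genes with a peak was nearest to a clustered peak. The same was true of hedgehog (9 genes with a peak), VEGF (7), TGF-beta and BMP (19), extracellular matrix (18) and proteasome genes (13), and of the Sertoli (3), germ (2), endothelial (4) and contractile (2) cell lists, while no gene of the immune list had a peak. These counts cover the genes of the lists only, and other genes of the kind, such as the matrix gene Hmcn2, were nearest to clustered peaks. Notch genes had 1 of 12 at a clustered peak (Dll4), Wnt genes of the list 1 of 17 (Dvl2; the list does not hold Wnt10a, Wnt7b or Pygo2, which were also nearest to clustered peaks), Hox genes 1 of 7 (Hoxd1), and immediate early genes 1 of 11 (Junb). At the share of 3.83% found over all genes with a peak, lists of this size are too short for a count of 0 or 1 to stand apart.

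The Hoxd1 cluster on chromosome 2 (74746453 to 74763127) had 3 peaks. That at the TSS of Hoxd1, shared with Haglr, had 26, 29 and 9 counts, and that in a coding exon of Hoxd3 had 47, 74 and 12. Junb, an AP-1 transcription factor gene, had a coding exon peak with the motif and 80, 76 and 10 counts, beside peaks at Hook2 with 54, 41 and 10 and with 71, 48 and 9 (chromosome 8, 84977367 to 84990947). Genes of the respiratory chain had 3 of 63 at clustered peaks (Atp5g3, Cox5b and Ndufb8), the cytosolic ribosome 4 of 46 (Rpl11, Rpl12, Rps21 and Rps27), the mitochondrial ribosome 2 of 39 (Mrpl20 and Mrps18b) and histone genes 2 of 12 (H2aw and H2bu2, in 1 cluster). The promoter peak of Cox5b had 109 and 85 ChIP counts with 18 in the input. That of Rpl11 had 98, 76 and 6, and the Atp5g3 peaks had 80, 79 and 14 and then 58, 52 and 10. None of these clusters differed from the typical locus at an adjusted p under 0.05 by edgeR's quasi-likelihood test.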

How the data were processed

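NR2F2 ChIP-seq libraries of whole E14.5 testes (2 ChIP, 1 input) were grouped by their titles. The values were raw read counts per peak, deposited by the authors for each library. According to the study's methods, reads were trimmed with TrimGalore 0.6.7, mapped to mm10 with Bowtie 2 in local mode, kept at a mapping quality of 5 or more and cleared of duplicates with Picard 1.110. Peaks were called with HOMER 4.11.1 on the merged ChIP replicates, resized to 300 bp and freed of blacklisted regions. Every peak was therefore selected for ChIP reads. The rule that assigned reads to peaks was not given in the sources used here. Whole-library depths were not used here, so ratios are known up to a common factor, and the input, with 73251 counts at all peaks against 426784 and 364261 in the ChIP replicates, limits their precision.

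Nearest genes and genomic classes came from 45756 curated RefSeq transcripts of 26180 genes (GRCm38.p6). Counts were tested with edgeR 4.0.16 (quasi-likelihood, TMM factors on counts at peaks, limma 3.58.1, R 4.3.3) against the typical peak or locus, with Benjamini-Hochberg adjustment over all rows, and with DESeq2 1.42.0 as an alternative. The fit was tested on simulated counts. p-values measure the spread between these 2 ChIP libraries, and the 1 input library is taken to vary as they do, and intervals cover counting error only. Ratios had 0.5 added to each count. Shares and medians over peaks carry no test, because peaks are not replicates. Python 3.11.15, numpy 2.4.6, scipy 1.17.1, pandas 2.3.3 and pyfaidx 0.9.0.4 were used.

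Named clusters were the 8 with most clustered peaks, the 5 with the highest mean ChIP count per peak, up to 8 with 1 nearest gene, those with every peak at a different promoter, and up to 5 clusters and 10 peaks called above or below. Clusters with genes of the interstitial, fetal Leydig or nuclear receptor lists and peaks that differed between replicates would have been named, and other lists are given by counts and examples. The peaks, lists and tests were chosen with earlier results of these data known. The alternatives were other windows, classes, added counts, scalings, tools and filters. The 5 peaks on unplaced contigs were left out of the classes. Some peaks and clusters that this rule names are not reported here.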

Additional observations from a re-analysis of the deposited data

Results flagged for a closer look

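The 5 peaks on unplaced contigs were left out of the classes because the rule covered placed chromosomes only. Those on the contig 4_GL456216_random lay within 20 kb of each other, so they would have met the rule by distance. Each of the 5 had ChIP counts above its input count in both replicates. This holds for nearly all peaks, since the median ratio over placed peaks was 5.11 in replicate 1 and 4.39 in replicate 2. On the contig 4_GL456216_random the mean ChIP counts over 2 replicates were 88.5 (106 and 71), 479.5 (442 and 517) and 343 (315 and 371) beside input counts of 16, 8 and 10. The peaks of 479.5 and 343 counts began at bases 34741 and 35585 of this contig, so that they lay within 1 kb of each other, and both exceeded the highest clustered peak, which had 180 and 154 counts. On 4_JH584295_random the mean ChIP counts were 55.5 (47 and 64) and 25 (16 and 34) beside input counts of 11 and 5.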

How the results depend on the processing

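The number of clustered peaks was set by the rule. It was 96 in 42 clusters with a window of 10 kb, 2072 in 700 clusters with 50 kb, and 2821 in 1278 clusters with at least 1 other peak, in place of 448 in 202. The log2 difference in ChIP counts between clustered and isolated peaks (0.30) was 0.13 with 10 kb, 0.30 with 50 kb, 0.14 and 0.34 at TSS proximal and other peaks, 0.28 against all other peaks, 0.27 with 5 added, and 0.29 to 0.32 with 1 replicate left out. The ratio difference (0.16) was -0.01 with 10 kb, 0.14 with 50 kb, 0.07 and 0.17 at TSS proximal and other peaks, 0.13 against all other peaks, 0.18 with 5 added, and 0.15 to 0.16 with 1 replicate left out. Alternatives chosen after seeing the data gave 0.36 for counts without peaks that had a neighbour within 1 kb, and 0.10 ± 0.05 (SD, n = 2) for ratios at peaks with at most 1 gene TSS within 20 kb. The cause was not tested.

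The 9 peaks called above became 4 with DESeq2 size factors in edgeR, 1 with DESeq2 and 0 at the 129 peaks with at least 10 input counts, which left out all 9. In that set edgeR's quasi-likelihood test called 12 above and 3 below without adjustment. The shares over all peaks were not computed with this filter or with DESeq2 size factors, so these counts have no background beside them. The 7 clusters became 1 with DESeq2 size factors, 1 with DESeq2 and 13 with at least 10 input counts, which left 133 clusters. That filter acted on the summed input of a cluster, with a median of 16, but on single peaks elsewhere, with a median of 7. The shares over all loci were not computed with this filter or with DESeq2 size factors. The 13 can therefore not be set against a background. The counts below stayed at 0. Leaving out a ChIP replicate left 1 library against 1 and no test. No paired analysis was possible because the input has no replicate number shared with the ChIP libraries.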

Other observations

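The clusters at Wnt7b and at Hmcn2 had no TSS proximal peak. At Wnt7b and Lncppara on chromosome 15 (85625634 to 85653839), 4 intergenic peaks summed to 216 counts in replicate 1, 202 in replicate 2 and 37 in the input, and the strongest had 78, 88 and 11. At Hmcn2 on chromosome 2 (31370839 to 31386246), 3 peaks inside the gene had 162 and 134 ChIP counts over 45 input counts, with a log2 value of -0.60 ± 0.25 (SE) relative to the typical locus (adjusted p = 0.289, edgeR's quasi-likelihood test). Peaks of the cluster at Gabrd, Cfap74 and 5830444B04Rik on chromosome 4 (155397630 to 155416918) shared 19.7% of their 20-base words, 2 of its 4 peaks held the extended motif, and 1 was TSS proximal. These clusters were chosen after their values were seen.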
